A study of Mus musculus with 11 samples.

Results

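The fatty acid elongases and desaturases are the enzymes that lengthen fatty acids and put double bonds into them. Here 10 of their genes were followed by name, namely the 6 elongases Elovl1, Elovl3, Elovl4, Elovl5, Elovl6 and Elovl7, the stearoyl-CoA desaturases Scd1 and Scd2, and the front-end desaturases Fads1 and Fads2. These 10 of the 18804 genes in the deposited table were taken by symbol, as a family chosen with earlier results of these data known. All 10 carry the KEGG term for biosynthesis of unsaturated fatty acids in that table, and all 10 passed the filter on low counts.

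RNA was sequenced from synovial membrane, the lining of the joint, of DBA/1 mice. The series asked how diet-induced obesity bears on collagen-induced arthritis (CIA), a model in which mice immunised with type II collagen develop inflamed joints. Its 11 libraries form 4 groups: sham mice on a regular diet (n = 3), CIA mice on a regular diet (n = 3), sham mice on a high-fat diet (n = 2) and CIA mice on a high-fat diet (n = 3). All are DBA/1, and the labels give no age, body weight or length of feeding. The treatment labels call 5 samples high-fat, while the growth notes name a regular diet for each of the 11. The groups follow the treatment labels. Nothing in the labels says that replicates a, b and c are separate animals, so the p-values speak only of the spread among these samples, which may be technical.

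Total counts were 13677638 to 17631167 per library. Prg4 and Pdgfra, which mark the synovial lining and fibroblasts, were present in every library, with Prg4 at 3976 to 20707 CPM (counts scaled to library totals adjusted by TMM). The 12 adipocyte markers were also high. Their summed CPM was 32834 to 45347 in regular-diet sham, 9162 to 28715 in regular-diet CIA, 16704 to 20465 in high-fat sham and 1919 to 7843 in high-fat CIA. Library b of regular-diet CIA stood apart from its group on the first principal component of all tested genes, at 64.7 against -24.4 and -40.6, among the high-fat CIA libraries at 50.4 to 122. In bulk tissue, fewer cells of a type and less RNA per cell cannot be told apart.

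Fatty acid synthase releases palmitate, which ELOVL6 lengthens to stearate and which SCD1 and SCD2 turn, with stearate, into the monounsaturated palmitoleate and oleate. The other route starts from dietary linoleic and alpha-linolenic acid. FADS2 makes its first desaturation, ELOVL5 lengthens the product, and FADS1 makes the next desaturation, which yields arachidonic and eicosapentaenoic acid. In mouse fat tissue, Scd1 and Elovl6 are known as lipogenic genes that respond to diet.

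Scd1 was the most abundant of the 10 genes per transcript length in every group, and its lead shrank on the high-fat diet. Mean TPM (a level scaled by transcript length and library) of Scd1 was 7816 in regular-diet sham, 10945 in regular-diet CIA, 1764 in high-fat sham and 793 in high-fat CIA. Scd1 made up 91.3% to 96.4% of the summed TPM of the 10 genes in the 6 regular-diet libraries and 38.9% to 86.2% in the 5 high-fat libraries. Elovl6 was the second most abundant by mean TPM in regular-diet CIA at 204, where its libraries overlapped those of Elovl5, next in order. It was the seventh in both high-fat groups, at 6.20 in sham and 8.37 in CIA. Elovl5, Elovl1, Scd2 and Fads1 kept to mean TPM levels between 33.9 and 106 in all groups. Fads2 had 11.3 to 21.6, and Elovl3, Elovl7 and Elovl4 had 4.22 or less in every group. The order of group means could differ between TPM and CPM, as for Elovl1 and Elovl5 on the regular diet.

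**Figure D1:**
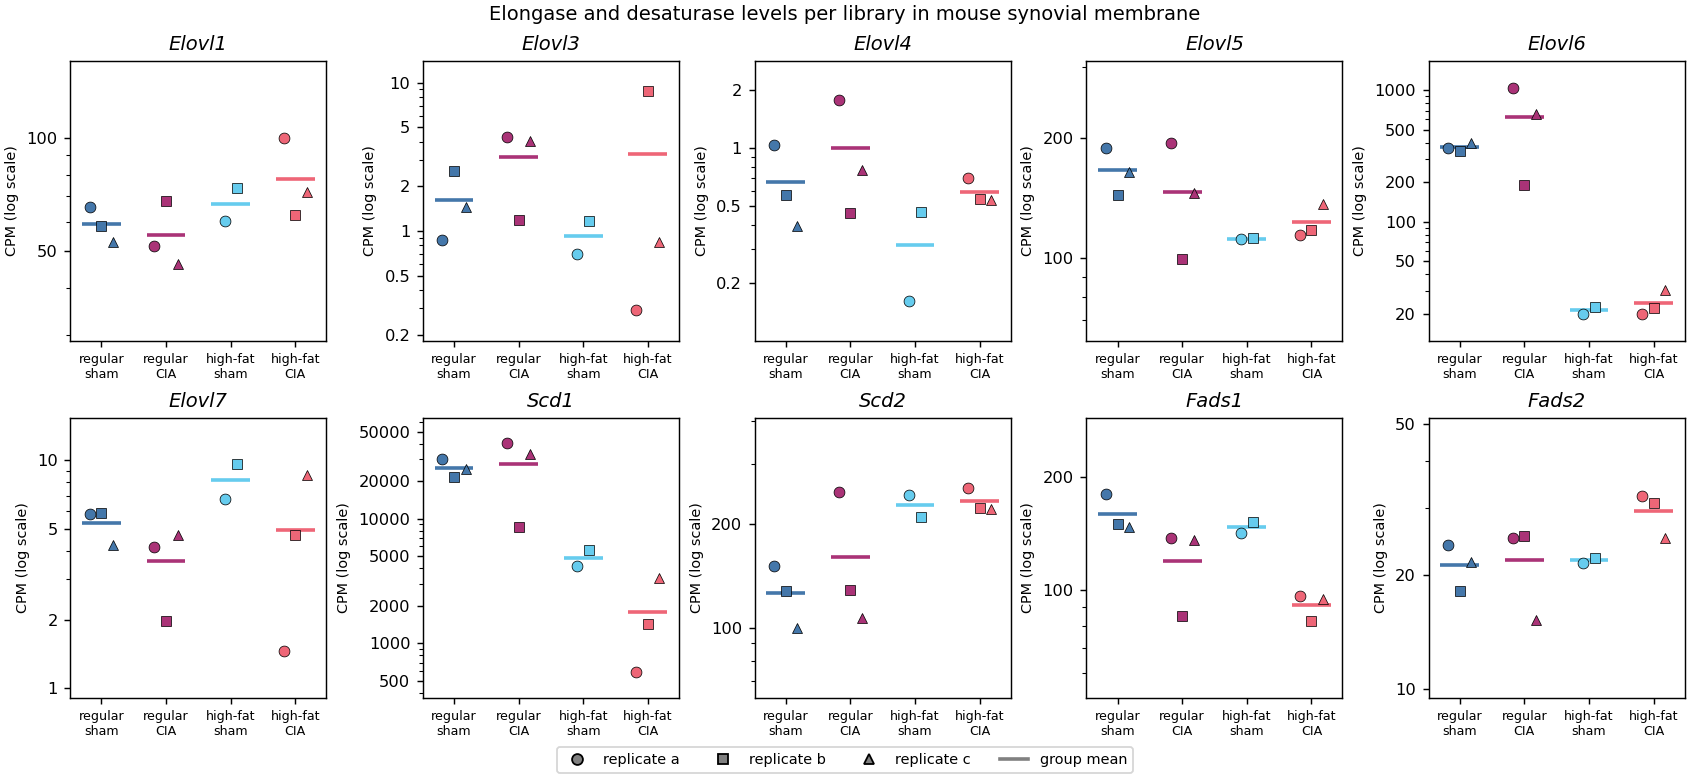
CPM (TMM-scaled, log axis, a separate axis for each gene) of the 10 genes in the 11 libraries, with 1 symbol per library and a line at each group's mean. The 5 high-fat libraries of Elovl6 sit at 20.0 to 30.4 CPM and the 6 regular-diet ones at 191 to 1042, while Scd1 runs from 588 to 5577 on the high-fat diet and from 8548 to 40248 on the regular diet.

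Across the tests, Elovl6 and Scd1 fell with the high-fat diet, and Fads1 fell with CIA when both diets were averaged. In that CIA comparison, the share of the family called lower was no larger than the share of all genes. The other 7 genes passed in no edgeR comparison of all 11 libraries. Genes were called at a Benjamini-Hochberg adjusted p under 0.05 over the 14892 genes tested, with edgeR's quasi-likelihood test. In CIA mice the high-fat diet gave 2 of the 10 genes, Elovl6 and Scd1, both lower, against 3.95% of all genes called in either direction and 2.89% called lower. Averaged over sham and CIA, the diet gave the same 2 genes, both lower, against 5.85% of all genes called, 1.69% higher and 4.16% lower. In sham mice the diet gave 0 of the 10, against 0% of all genes. There 3 of the 10 genes and 1165 of all genes had an unadjusted p under 0.05 in edgeR, and DESeq2 called 2 of the 10, Elovl6 and Scd1, and 114 genes in all.

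CIA against sham gave 0 of the 10 genes on the regular diet, against 0.0269% of all genes. None of the 10 had an unadjusted p under 0.05 there in edgeR, where 2579 of all genes did, and DESeq2 called 0 of the 10. On the high-fat diet CIA gave 0 of the 10, against 10.8% of all genes called, 5.06% higher and 5.75% lower. There 1 of the 10, Fads1, had an unadjusted p under 0.05 in edgeR, and DESeq2 called that gene. CIA averaged over both diets gave 1 of the 10, Fads1, lower, against 23.8% of all genes called and 10.8% called lower. This was no more than the general share. The difference between both CIA effects (interaction) gave 0 of the 10, against 0% of all genes. None of the 10 and 635 of all genes had an unadjusted p under 0.05 for it in edgeR, and DESeq2 called 0 of the 10.

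The median log2 fold change of the 10 genes was -0.34 for the diet in sham mice and -0.10 in CIA mice, against -0.01 and -0.03 over all tested genes. It was 0.06 for CIA on the regular diet and 0.16 on the high-fat diet, against 0.06 and 0.02 over all. For the diet in CIA mice, 5 of the 10 genes had a positive and 5 a negative fold change.

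**Figure D2:**
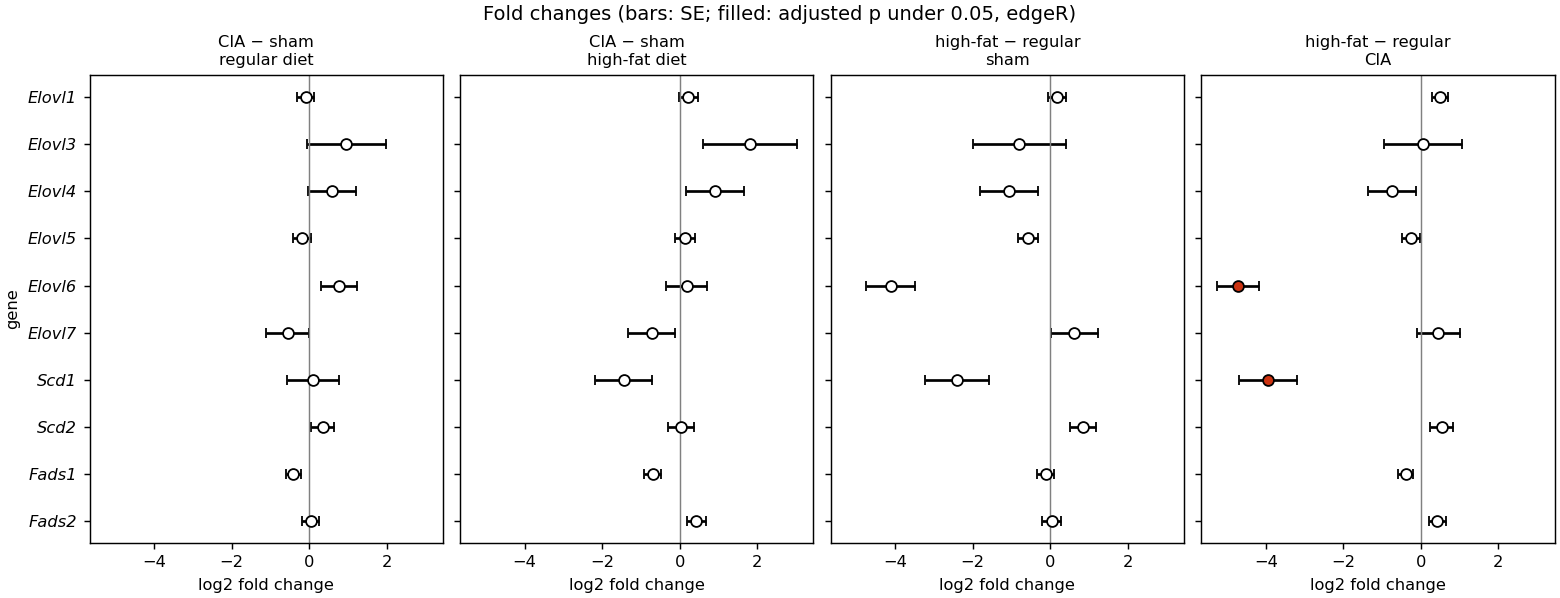
Log2 fold changes (points) with their SE (bars) of the 10 genes in 4 comparisons, with filled points for an edgeR adjusted p under 0.05. Only Elovl6 and Scd1 in the diet comparison of CIA mice are filled, at -4.71 and -3.94, and both lie at -4.12 and -2.40, unfilled, in sham mice.

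Elovl6, the elongase that turns palmitate into stearate, lies on chromosome 3 (GRCm38.p6, chr3:129532386-129638495). It had the lowest fold change among the 10 genes with the high-fat diet. Its CPM was 367, 345 and 396 in regular-diet sham libraries a, b and c. In regular-diet CIA it was 1042, 191 and 658. On the high-fat diet it was 20.0 and 22.5 in sham libraries a and b, and 20.0, 21.9 and 30.4 in CIA. Every high-fat library was below every regular-diet library, and sham and CIA libraries overlapped on each diet. In CIA mice 2 of the 10 genes, Elovl6 and Scd1, were lower on the high-fat diet without overlap and 0 were higher, against 13.5% and 8.66% of all genes. In sham mice 3 of the 10, Elovl5, Elovl6 and Scd1, were lower without overlap, against 22.1% of all genes. The 5 high-fat libraries still held 343 to 507 counts of Elovl6 each.

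In CIA mice Elovl6 was 26.1-fold lower on the high-fat diet, with a log2 fold change of -4.71 ± 0.54 (SE) and an edgeR adjusted p of 0.0330. In sham mice it was 17.4-fold lower, at -4.12 ± 0.63, with an edgeR adjusted p of 0.341 and a DESeq2 adjusted p of 1.05e-10. By unadjusted p it was nonetheless the 2nd of the 14892 genes in edgeR in each of these comparisons. The authors' deposited table gives Elovl6 a q-value of 1.04e-167 in sham mice and 1.39e-11 in CIA mice. The authors' fits may rest on other libraries or settings than the fits here, which used all 11 libraries. Averaged over sham and CIA, Elovl6 fell by 4.41 ± 0.43 on the log2 scale (edgeR adjusted p = 0.0139) and was first by unadjusted p.

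The Elovl6 calls depended on which libraries entered. Without library b of regular-diet CIA, the edgeR adjusted p of Elovl6 was 1.96e-04 for the diet in CIA mice and 0.00318 in sham mice. Without any of the other 10 libraries in turn, the call in CIA mice was lost, with edgeR adjusted p of 0.0536 to 0.155, while the log2 fold change over all 11 runs stayed between -5.14 and -4.14. In each of those 10 runs 0 of all tested genes passed in edgeR for the diet in CIA mice, against 588 with all libraries and 3224 without regular-diet CIA b. The averaged diet call of Elovl6 was lost without regular-diet sham c, high-fat sham a or high-fat sham b, with edgeR adjusted p of 0.0674 to 0.183. The replicate letter added as a block also moved both calls past the threshold, to an edgeR adjusted p of 0.0757 in CIA mice and 0.0733 averaged.

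CIA did not give a called difference in Elovl6. On the regular diet 2 of the 3 CIA libraries were above and 1 was below all sham libraries, and the log2 fold change was 0.77 ± 0.47 (edgeR adjusted p = 0.413). Without regular-diet CIA b, which is the low library, it was 1.202 ± 0.24 (edgeR adjusted p = 0.117), and CIA averaged over diets then passed, at 0.69 ± 0.18 (edgeR adjusted p = 0.0194). With all libraries that average was 0.48 ± 0.35 (edgeR adjusted p = 0.342).

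The 250 bases upstream of Elovl6 are shown beside those of Elovl5, since the first fell with the diet and the second, also an elongase, passed no edgeR test with all libraries. The bases are from RefSeq (GRCm38.p6, plus strand), chr3:129532136-129532385 for Elovl6 and chr9:77917115-77917364 for Elovl5. Capitals mark letters that match a searched motif on either strand.
Elovl6: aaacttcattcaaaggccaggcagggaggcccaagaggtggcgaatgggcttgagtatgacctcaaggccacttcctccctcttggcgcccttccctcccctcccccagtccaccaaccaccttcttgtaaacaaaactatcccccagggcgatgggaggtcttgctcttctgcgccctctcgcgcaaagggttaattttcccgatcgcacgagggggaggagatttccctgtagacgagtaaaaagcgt
Elovl5: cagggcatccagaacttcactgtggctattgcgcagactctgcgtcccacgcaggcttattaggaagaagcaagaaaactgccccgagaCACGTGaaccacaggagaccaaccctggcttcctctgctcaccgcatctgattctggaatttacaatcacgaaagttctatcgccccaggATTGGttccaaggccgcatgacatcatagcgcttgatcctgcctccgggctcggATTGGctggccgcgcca
In all 4 motifs were searched on both strands: the E-box CACGTG, the CCAAT box CCAAT, a sterol regulatory element TCACNCCAC and the GC box GGGCGG. None of these letters occurs in the Elovl6 window. The Elovl5 window has 1 E-box, 161 bases upstream of the start, and 2 CCAAT boxes, read as ATTGG on this strand, 71 and 17 bases upstream, with no overlap between motifs. Over 32851 mouse promoter windows of the same length, 6.02% held the E-box, 33.85% the CCAAT box, 1.05% the sterol element and 32.74% the GC box. Windows were found for 6 of the 10 genes, and none for Elovl3, Scd1, Scd2 and Fads1. None of the 6 held the sterol element, and Elovl5 alone held the E-box.

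Scd1, the desaturase that makes oleate and palmitoleate, lies on chromosome 19 (GRCm38.p6, chr19:44394450-44407709). Its CPM was 30236, 21696 and 25129 in regular-diet sham and 40248, 8548 and 33198 in regular-diet CIA, libraries a, b and c. On the high-fat diet it was 4161 and 5577 in sham, and 588, 1441 and 3316 in CIA. All high-fat libraries were below all regular-diet ones, and on the high-fat diet both sham libraries were above all CIA libraries. As a share of all counts, Scd1 took 0.912% to 3.93% on the regular diet and 0.0586% to 0.559% on the high-fat diet. By TPM it ranked 2nd to 32nd of all genes in the regular-diet libraries and 64th to 672nd in the high-fat ones.

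In CIA mice Scd1 was 15.3-fold lower on the high-fat diet, at -3.94 ± 0.75 on the log2 scale (edgeR adjusted p = 0.0346). In sham mice it was 5.28-fold lower, at -2.40 ± 0.83, with an edgeR adjusted p of 0.530 and a DESeq2 adjusted p of 0.0497. The authors' deposited table gives Scd1 a q-value of 9.97e-29 in sham mice and 6.19e-05 in CIA mice. Averaged over sham and CIA, Scd1 fell by 3.17 ± 0.57 on the log2 scale (edgeR adjusted p = 0.0243). The call in CIA mice held only without regular-diet CIA b (edgeR adjusted p = 0.00320) and was lost without each of the other 10 libraries, at edgeR adjusted p of 0.0552 to 0.155. The averaged call of Scd1 was lost without regular-diet CIA a or c, regular-diet sham a or c, or either high-fat sham library, at edgeR adjusted p of 0.0619 to 0.187. With the replicate block, the edgeR adjusted p of Scd1 was 0.0773 in CIA mice and 0.0733 averaged.

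With CIA, the log2 fold change of Scd1 was 0.09 ± 0.67 on the regular diet (edgeR adjusted p = 0.960) and -1.45 ± 0.74 on the high-fat diet (edgeR adjusted p = 0.212). Groups that did not overlap, CIA lower, were found for 27.7% of all genes in the second comparison. The difference between both was -1.54 ± 1.00 (edgeR adjusted p = 0.989). The estimated counts of Scd1 and Scd2 were not whole numbers in 10 of 11 libraries each, whereas those of the other 8 genes were whole in all 11. Such counting divides reads that match similar genes, so the counts of Scd1 and Scd2 rest in part on an estimate. Whether the 2 shared reads with each other or with other genes was not tested, and the split between them may be uncertain.

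Scd2, which catalyses the same reaction as Scd1 and is the main form in mouse brain, lies beside it (GRCm38.p6, chr19:44293676-44306864). Its CPM was 152, 128 and 100.1 in regular-diet sham and 248, 129 and 107 in regular-diet CIA. It was 244 and 211 in high-fat sham, and 255, 224 and 222 in high-fat CIA. The high-fat libraries lay above all regular-diet libraries but 1, regular-diet CIA a. In sham mice Scd2 was thus higher on the high-fat diet without overlap, as were 19.7% of all genes, at 0.85 ± 0.33 (edgeR adjusted p = 0.566). Averaged over sham and CIA the log2 fold change was 0.69 ± 0.22, with an edgeR adjusted p of 0.0966 and a DESeq2 adjusted p of 0.0304. The authors' deposited table gives Scd2 a q-value of 0.00119 in sham mice and 0.548 in CIA mice.

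The ratio of Scd1 to Scd2, in TPM, thus differed between the diets in every library. It was 193 to 285 in regular-diet sham and 75.2 to 353 in regular-diet CIA. It was 19.3 and 30.0 in high-fat sham and 2.61, 7.30 and 16.9 in high-fat CIA. The ratio of Elovl6 to Elovl5 in TPM was 0.851 to 2.37 in the 6 regular-diet libraries and 0.0772 to 0.0989 in the 5 high-fat ones. No library of one diet lay within the range of the other for either ratio, and these ratios were not tested.

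Elovl5, the elongase of polyunsaturated fatty acids, lies on chromosome 9 (GRCm38.p6, chr9:77917365-77984519). Its CPM was 189, 144 and 164 in regular-diet sham and 194, 99.5 and 146 in regular-diet CIA. It was 111 and 112 in high-fat sham, and 114, 118 and 137 in high-fat CIA. In sham mice both high-fat libraries were below all regular-diet ones, as for 22.1% of all genes, at -0.57 ± 0.26 (edgeR adjusted p = 0.657). The authors' deposited table gives Elovl5 a q-value of 0.0165 there. Averaged over sham and CIA the diet difference was -0.41 ± 0.17 (edgeR adjusted p = 0.188), and without regular-diet CIA b it passed, at -0.52 ± 0.13 (edgeR adjusted p = 0.0214). On the high-fat diet all CIA libraries of Elovl5 were above both sham libraries, as for 27.5% of all genes, at 0.14 ± 0.26 (edgeR adjusted p = 0.749).

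Elovl1 lengthens saturated and monounsaturated chains to very long ones (GRCm38.p6, chr4:118426874-118432953). Its CPM was 65.8, 58.5 and 52.8 in regular-diet sham, 51.6, 67.9 and 46.3 in regular-diet CIA, 60.1 and 73.5 in high-fat sham, and 100.2, 62.3 and 71.8 in high-fat CIA. In CPM all neighbouring groups overlapped, and the diet difference in CIA mice was 0.50 ± 0.21 (edgeR adjusted p = 0.193). In TPM the high-fat sham libraries, at 63.4 and 76.6, were above the regular-diet sham ones at 49.0 to 56.7. The share of all genes without overlap in TPM was not computed.

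The remaining elongases were weakly expressed. Elovl7, which acts on saturated very long chains (GRCm38.p6, chr13:108214326-108287109), had 4.26 to 5.84 CPM in regular-diet sham and 1.96 to 4.69 in regular-diet CIA. It had 6.73 and 9.58 in high-fat sham and 1.45 to 8.65 in high-fat CIA. In sham mice both high-fat libraries of Elovl7 were above the regular-diet ones, at 0.62 ± 0.61 (edgeR adjusted p = 0.881). Such groups, higher without overlap, were found for 2 of the 10 genes, Elovl7 and Scd2, and for 19.7% of all genes, which is about the same share. Elovl4, the elongase of ultra-long chains in retina and skin (GRCm38.p6, chr9:83778692-83806305), held 3 to 28 counts per library. All 3 high-fat CIA libraries of Elovl4, at 0.540 to 0.698 CPM, were above the high-fat sham ones at 0.160 and 0.467, a difference of 0.92 ± 0.75 (edgeR adjusted p = 0.427). With CIA on the high-fat diet 3 of the 10 genes, Elovl4, Elovl5 and Fads2, were higher without overlap, near the 27.5% of all genes that were.

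Elovl3, known from mouse brown fat and sebaceous glands (GRCm38.p6, chr19:46131897-46135694), varied widely between replicates. Its CPM was 0.875, 2.54 and 1.44 in regular-diet sham, 4.29, 1.18 and 4.05 in regular-diet CIA, 0.694 and 1.17 in high-fat sham, and 0.291, 8.74 and 0.841 in high-fat CIA. The highest value, in high-fat CIA b, rests on 145 counts against 5 and 14 in the other high-fat CIA libraries. With CIA on the high-fat diet the log2 fold change of Elovl3 was 1.81 ± 1.22 (edgeR adjusted p = 0.336), and without high-fat CIA b it was -0.71 (edgeR adjusted p = 0.597). Markers on the list of brown and beige adipocytes differed in whether they set that library apart. Cidea and Dio2 were at 59.1 and 48.7 CPM in high-fat CIA b, against 5.76 and 11.2, and 7.86 and 16.1, in the other high-fat CIA libraries. Cox8b, at 23.9 against 2.56 and 12.9, and Cox7a1 were also highest there among the high-fat CIA libraries. Ppargc1a was not, at 7.53 against 1.92 and 8.89, and Ucp1 was about level with high-fat CIA a. Cidea was higher, at 94.0 to 444 CPM, in the regular-diet libraries. The summed CPM of the 7 markers on that list was 547 to 626 in regular-diet sham, 137 to 485 in regular-diet CIA, 117 to 158 in high-fat sham and 21.2 to 143 in high-fat CIA. Ucp1, which defines those cells, was at 1.08 to 7.34 CPM in all libraries. Of 10 listed keratinocyte and sebaceous gland markers, 9 were in the deposited table and 5 were tested. The 9 summed to 624 to 1057 CPM in regular-diet sham, 209 to 570 in regular-diet CIA, 396 to 417 in high-fat sham and 154 to 297 in high-fat CIA. Among them Mgst1, a glutathione transferase also found in other tissues, was at 53.4 to 1026 CPM over the libraries. It made up 1026 of the 1057 CPM in regular-diet sham a and 53.4 of the 154 in high-fat CIA a. Soat1, which makes cholesterol esters, went the other way from the sum, at 14.2 to 15.5 CPM in regular-diet sham and 51.3 to 107 in high-fat CIA. The keratins Krt10 and Krt79 were at 2.53 to 6.52 and 1.085 to 9.77, while Krt14 and Krt1 were at 0.214 or less in each library. Marrow granulocyte and erythroid markers summed to 1319 CPM in high-fat CIA b, against 82.2 and 348 in high-fat CIA a and c. The part of any of these cells in the Elovl3 levels was not tested.

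Fads1, the desaturase that makes arachidonic and eicosapentaenoic acid (GRCm38.p6, chr19:10182877-10196874), had lower CPM with CIA on both diets. It was 180.2, 150.1 and 148 in regular-diet sham against 138, 85.4 and 136 in regular-diet CIA. It was 142 and 152 in high-fat sham against 96.4, 82.5 and 94.5 in high-fat CIA. The CIA libraries were below all sham libraries on each diet, as for 13% of all genes on the regular diet and 27.7% on the high-fat diet. The log2 fold change was -0.41 ± 0.20 on the regular diet (edgeR adjusted p = 0.314). On the high-fat diet it was -0.69 ± 0.22, with an edgeR adjusted p of 0.0676 and a DESeq2 adjusted p of 0.0307. The authors' deposited table gives Fads1 q-values of 0.502 and 0.00107 for these comparisons.

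Averaged over both diets, Fads1 fell by 0.55 ± 0.15 on the log2 scale, or 1.47-fold (edgeR adjusted p = 0.0260). The call was lost without regular-diet sham a, b or c, high-fat CIA b or high-fat sham a or b, at edgeR adjusted p of 0.0510 to 0.125. Without regular-diet CIA b it held (edgeR adjusted p = 0.0120), and the comparison on the high-fat diet then passed too (edgeR adjusted p = 0.0104). So did the diet comparison in CIA mice, at -0.59 ± 0.14 (edgeR adjusted p = 0.0186), which with all libraries was -0.39 ± 0.20 (edgeR adjusted p = 0.260). The order of sham and CIA libraries on the regular diet depended on the scale. In the deposited TPM values, regular-diet CIA libraries a and c had 81.6 and 76.2 for Fads1, above the 66.2 to 72.6 of regular-diet sham, and only b was below, at 45.8. On the high-fat diet the TPM values, 52.0 to 61.9 in CIA against 74.6 and 78.2 in sham, had the same order as CPM. The regular-diet means of Elovl5 and Elovl1 also changed order with the scale. In CPM they were 147 and 55.3 in CIA against 166 and 59.0 in sham. In TPM they were 106 and 61.1 in CIA against 92.1 and 52.0 in sham.

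Fads2, the desaturase of the first step of that route, lies beside Fads1 (GRCm38.p6, chr19:10062765-10101503). Its CPM was 24.0, 18.2 and 21.7 in regular-diet sham and 25.1, 25.3 and 15.2 in regular-diet CIA. It was 21.6 and 22.2 in high-fat sham, and 32.4, 30.9 and 25.0 in high-fat CIA. All high-fat CIA libraries were above both high-fat sham libraries, as for 27.5% of all genes, at 0.43 ± 0.25 (edgeR adjusted p = 0.267), and the diet difference in CIA mice was 0.43 ± 0.22 (edgeR adjusted p = 0.270). The ratio of Fads1 to Fads2 in TPM was 5.45 to 6.81 in the 5 sham libraries of both diets, 2.79 to 7.38 in regular-diet CIA and 2.21 to 3.13 in high-fat CIA. The mean CPM of Elovl1, Scd2 and Fads2, none of which passed an edgeR test with all libraries, was highest in high-fat CIA, as was that of macrophage and monocyte markers. The summed CPM of these markers over 8 genes was 649 to 994 in regular-diet sham, 949 to 1594 in regular-diet CIA, 1335 to 1792 in high-fat sham and 2567 to 4134 in high-fat CIA. The 8 lining and fibroblast markers summed to 11343 to 15929 on the regular diet and 20832 to 31812 on the high-fat diet. For CIA on the regular diet the median log2 fold change of the 8 macrophage markers was 1.03. Elovl1, Scd2 and Fads2 had -0.09, 0.35 and 0.04 there. For the diet in sham mice the marker median was 0.80, and the 3 genes had 0.18, 0.85 and 0.04. Elovl3 also had its highest mean CPM in high-fat CIA, at 3.29 against 3.17 in regular-diet CIA, with 8.74 in high-fat CIA b. The part of macrophages and lining cells in the levels of these genes was not tested.

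Genes of saturated fatty acid supply, upstream of Elovl6 and Scd1, were lower on the high-fat diet with them. The list holds Slc25a1, Acly, Acss2, Me1, Acaca and Fasn, of the cytosolic route to palmitate, Acacb and Mcat, which act at mitochondria, and Mlycd, which breaks down malonyl-CoA. All 9 were tested, and all 9 had negative fold changes for the diet in sham mice (median -2.42, 0 called) and in CIA mice (median -3.33). In CIA mice 6 of the 9 fell and 0 rose, against 2.89% of all genes called lower. Averaged over sham and CIA 8 fell and 0 rose, against 4.16% of all genes called lower. In CIA mice Slc25a1, the mitochondrial citrate carrier, fell by 3.33 ± 0.53 on the log2 scale, and Me1, the malic enzyme that makes NADPH, by 3.59 ± 0.58 (edgeR adjusted p = 0.0330 for each). Acss2, which makes acetyl-CoA from acetate, fell by 4.10 ± 0.65 (edgeR adjusted p = 0.0330), and Acly, which makes it from citrate, by 2.49 ± 0.49 (edgeR adjusted p = 0.0346). CIA averaged over diets gave 1 of the 9, lower, against 10.8% of all genes called lower.

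Of the 10 regulators of lipid synthesis, 4 fell and 0 rose with the diet in CIA mice, and 3 fell with the diet averaged. With CIA 3 fell on the high-fat diet and 4 fell averaged. The shares of all genes called lower in these comparisons were 2.89%, 4.16%, 5.75% and 10.8%, in that order. For the diet in CIA mice, Thrsp, a lipogenic nuclear protein, fell by 4.57 ± 0.98 (edgeR adjusted p = 0.0394), and Insig1, which retains sterol regulatory element binding proteins in the endoplasmic reticulum, by 1.63 ± 0.30 (edgeR adjusted p = 0.0343). The liver X receptors Nr1h2 and Nr1h3 differed by -0.51 and -0.99 (edgeR adjusted p = 0.0710 and 0.0835). With CIA averaged over diets they fell by 0.48 and 0.98 (edgeR adjusted p = 0.0134 and 0.0150). Srebf1, chosen after its values were seen, encodes a main activator of Scd1 and Elovl6 in mouse liver. It was at 448 to 517 CPM in regular-diet sham and at 413 and 453 in high-fat sham, a difference of -0.12 ± 0.44 (edgeR adjusted p = 0.976). In CIA mice it was at 177 to 473 CPM on the regular diet and 92.3 to 235 on the high-fat diet, a difference of -1.19 ± 0.40 (edgeR adjusted p = 0.112). With CIA it differed by -1.48 ± 0.44 on the high-fat diet (edgeR adjusted p = 0.0561), and averaged over diets it fell by 0.94 ± 0.29 (edgeR adjusted p = 0.0433).

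The partners of the elongases were lower in part. They carry out the other steps of the elongation cycle, and 6 of the 7 on the list were tested. With the diet averaged over sham and CIA, where 4.16% of all genes were called lower, 3 fell and 0 rose. These were Tecr, the last reductase (-0.73 ± 0.15, edgeR adjusted p = 0.0265), Hacd2, a dehydratase (-1.28 ± 0.27, edgeR adjusted p = 0.0304), and Hsd17b12, the first reductase (-1.02 ± 0.24, edgeR adjusted p = 0.0413). Tecr also fell with CIA averaged over diets, by 0.69 ± 0.14 (edgeR adjusted p = 0.0117), the one of the 6 to do so. Of the 5 electron donors of the desaturases, 2 fell with CIA averaged over diets and 0 rose, against 10.8% of all genes called lower. Cyb5a, which encodes cytochrome b5, fell by 1.27 (edgeR adjusted p = 0.00717), and Cyb5r1, a cytochrome b5 reductase, by 0.49 (edgeR adjusted p = 0.0130).

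Of the other elongase and desaturase family genes, 5 of 7 were tested and 1 passed any test. Fads3, which introduces a double bond into sphingoid bases, fell with CIA on the high-fat diet by 1.25 ± 0.35 (edgeR adjusted p = 0.0483). Elovl2, the elongase of the longest polyunsaturated chains, was not among the tested genes, at 0.121 CPM or less in every library. Among 5 tested genes of fatty acid activation, Acsl4, which prefers arachidonic acid, rose with CIA averaged over diets by 1.01 ± 0.16 (edgeR adjusted p = 0.00634), and Dbi, an acyl-CoA carrier, fell by 1.65 ± 0.30 (edgeR adjusted p = 0.00835). Among 5 genes that place or release polyunsaturated chains in phospholipids, 2 rose in the same comparison and 0 fell. They were Pla2g4a, the phospholipase that frees arachidonic acid, at 1.18 ± 0.29 (edgeR adjusted p = 0.0200), and Lpcat2, a lysophospholipid acyltransferase of inflammatory cells, at 1.81 ± 0.46 (edgeR adjusted p = 0.0224). In that comparison 5 of the 8 macrophage and monocyte markers rose (median log2 fold change of the 8, 0.96), as did 4 of the 8 neutrophil markers (median 2.11), against 13% of all genes called higher. Neutrophil markers summed to 51.1 to 180 CPM in regular-diet sham, 282 to 1194 in regular-diet CIA, 31.9 and 1172 in high-fat sham and 909.8 to 5432 in high-fat CIA. The part of these cells in the levels of Acsl4, Pla2g4a and Lpcat2 was not tested.

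**Figure D3:**
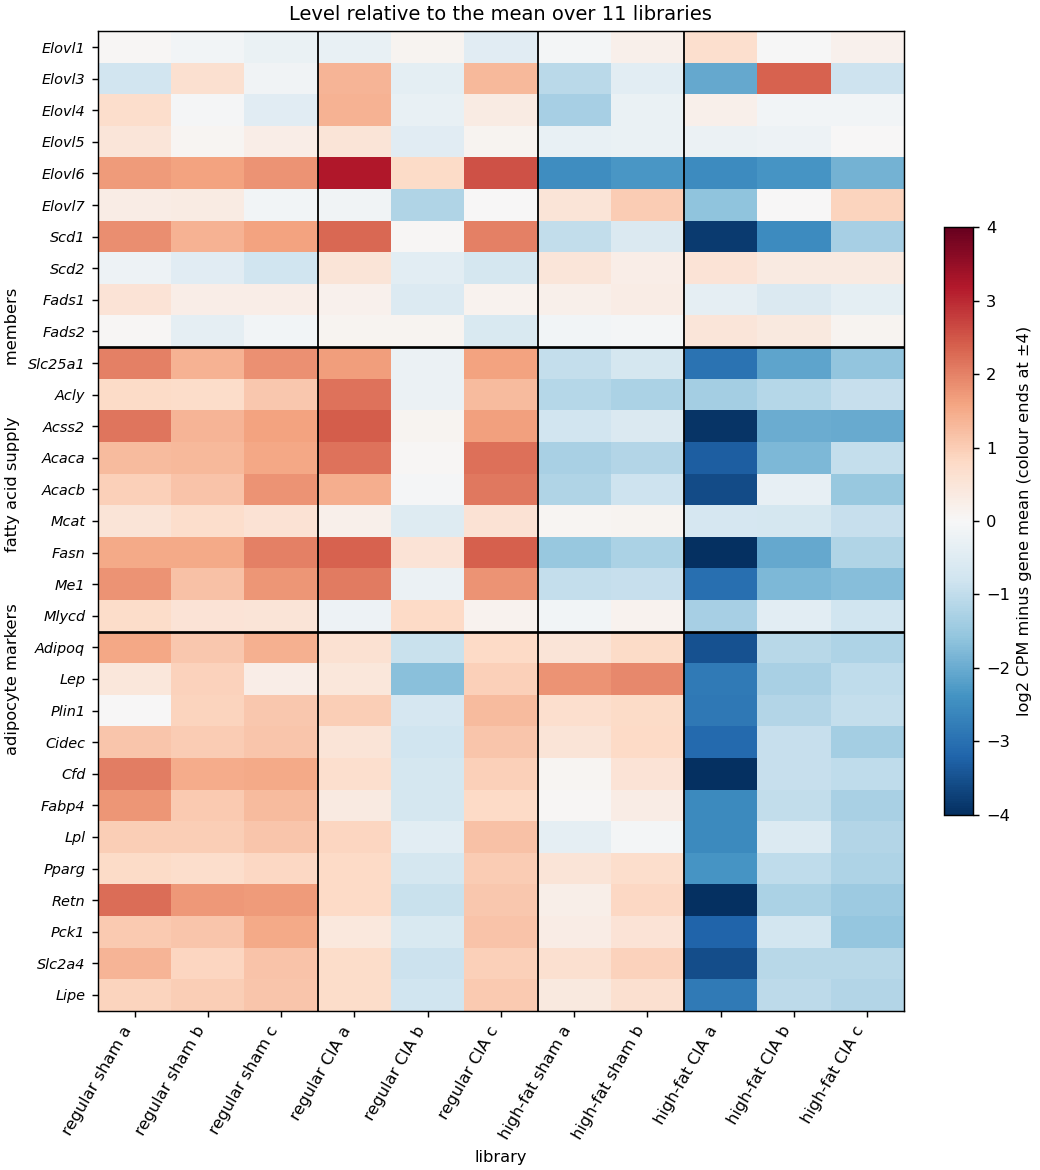
Log2 CPM of the 10 genes, of 9 genes of fatty acid supply and of 12 adipocyte markers in the 11 libraries, each gene minus its mean over them (colour, ending at 4 in each direction). Elovl6, Scd1 and most supply genes are low in all 5 high-fat libraries, while most adipocyte markers are low in high-fat CIA and regular-diet CIA b, and have a median fold change of -0.59 between the diets in sham mice.

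Adipocyte markers moved with some of these differences. For the diet in sham mice, 0 of the 12 passed the test and 11 had a negative fold change, with a median of -0.59. Their summed CPM was 32834 to 45347 in regular-diet sham and 16704 and 20465 in high-fat sham, without overlap. The lowest 4 differences were those of Cfd, a complement protease secreted by fat cells (-1.38 ± 0.88), Retn, resistin (-1.34 ± 0.88), Lpl, lipoprotein lipase (-1.24 ± 0.59), and Fabp4, a fatty acid carrier (-1.22 ± 0.57). The highest 3 were those of Pparg, the adipocyte transcription factor (-0.14 ± 0.48), Plin1, which coats the lipid droplet (-0.01 ± 0.62), and Lep, leptin (1.28 ± 0.65). The edgeR adjusted p of these 7 was 0.659 to 0.999. For the diet in CIA mice the median of the 12 was -1.99, with 1 lower call. For CIA it was -2.11 on the high-fat diet, with 6 lower calls, and averaged over diets 9 of the 12 fell. The shares of all genes called lower in these comparisons were 2.89%, 5.75% and 10.8%, in that order.

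Set against the summed CPM of the 12 markers, a ratio chosen after the data were seen, Elovl6 was again lower in high-fat sham than in regular-diet sham. Per 1000 CPM of the markers, Elovl6 had 8.10 to 10.8 CPM in regular-diet sham, 20.9 to 47.3 in regular-diet CIA, 1.10 and 1.199 in high-fat sham, and 2.80 to 10.4 in high-fat CIA. Scd1 had 661 to 684 in regular-diet sham, 933 to 1826 in regular-diet CIA, 249 and 272 in high-fat sham, and 184 to 521 in high-fat CIA. Between the diets neither sham groups nor CIA groups overlapped for either gene on this ratio. The share of all genes without overlap on this ratio was not computed. Within each diet every CIA library was above every sham library for Elovl6. Fads1, which fell with CIA in CPM, had 3.97 to 4.57 in regular-diet sham and 4.74 to 9.32 in regular-diet CIA on this ratio, and 7.45 and 8.51 in high-fat sham against 10.5 to 50.2 in high-fat CIA. The order of sham and CIA for Fads1 on this ratio was thus the opposite of that in CPM. The marker sum itself was lower with CIA on each diet, which raises the ratio of any gene. On the high-fat diet each of the 10 genes except Scd1 was higher on this ratio in every CIA library than in both sham libraries. On the regular diet this held for Elovl3, Elovl4, Elovl5, Elovl6, Scd1 and Fads1. Elovl1, Elovl7, Scd2 and Fads2 overlapped there. The ratio therefore cannot tell a rise in Elovl6 or Fads1 from the fall in the markers. The part of adipocyte content in these levels was not tested beyond this ratio.

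**Figure D4:**
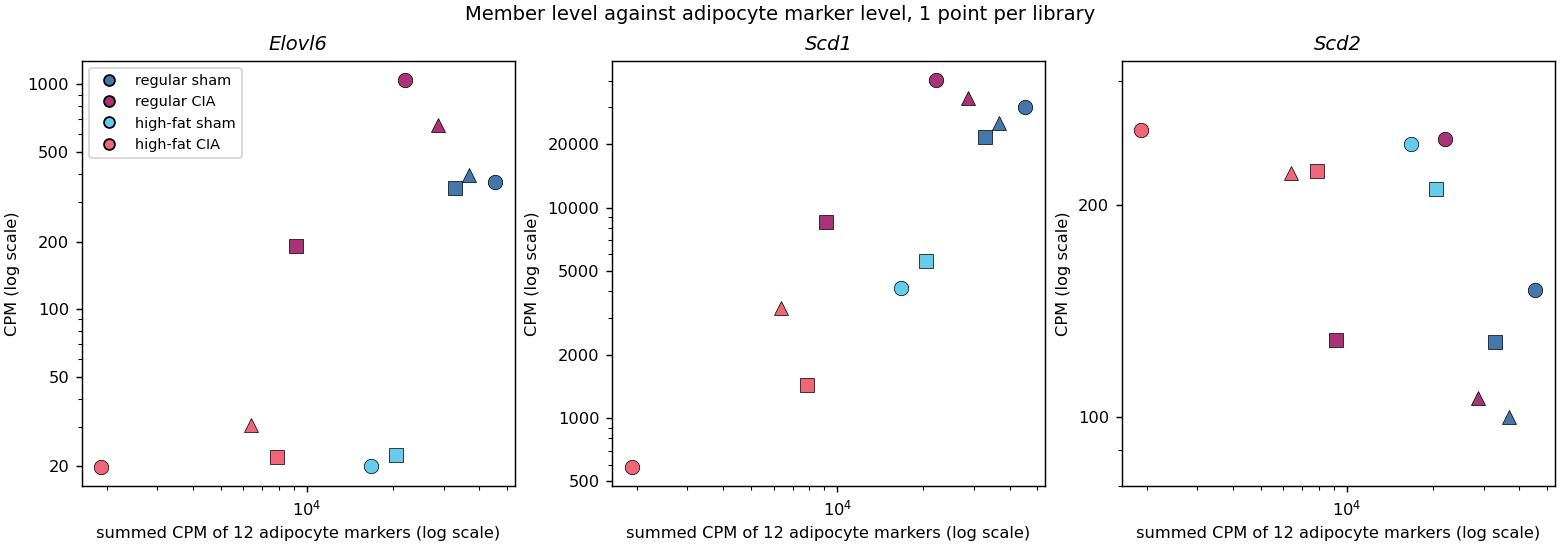
CPM of Elovl6, Scd1 and Scd2 against the summed CPM of 12 adipocyte markers in the same library (log axes), with 1 point per library, coloured by group, and the symbol for replicate a (circle), b (square) or c (triangle). The high-fat sham libraries have marker sums of 16704 and 20465, and 20.0 and 22.5 CPM of Elovl6. The regular-diet CIA libraries have sums of 9162 to 28715 and 191 to 1042 CPM of Elovl6, and the regular-diet sham ones sums of 32834 to 45347 and 345 to 396 CPM.

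The 10 genes did not share 1 pattern over the libraries. Likeness was measured as the root mean square difference of log2 CPM over the 11 libraries, each gene centred on its mean. Elovl6 and Scd1 differed from each other by 0.91, whereas Elovl6 and Elovl5 differed by 1.98 and Scd1 and Scd2 by 2.28. Among all tested genes, the nearest to Scd1 were Acss2 (0.31) and Me1 (0.39), both on the supply list, against a median of 1.97 over all genes. The nearest to Elovl6 were Slc15a5, a solute carrier (0.55), and Slc2a5, a fructose transporter (0.56), against a median of 2.23. The nearest to Fads1 were Timm21, of the mitochondrial protein import machinery (0.07), and Lrpap1, a chaperone of lipoprotein receptors (0.08), against a median of 0.56.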

How the data were processed

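RNA was sequenced from synovial membrane in 11 libraries, and 1 deposited table was read. It holds the authors' estimated counts for each gene, which are not normalized, and their FPKM and TPM values, per the file headers. The authors also deposited, for 4 comparisons, log2 fold changes with q-values from DESeq2, which are p-values adjusted for many tests. FPKM values were not used. The submitters' processing notes name the build GRCm38.p6 and the tools DESeq2 1.4.5, RSEM 1.2.12 and Bowtie2 2.2.5, with no role or order. Whether libraries are stranded is not given in the sources used here. Of the estimated counts, 11.98% were not whole at a tolerance of 0.001, and they were rounded. Of 18804 genes, 507 had no count, and 1 line was empty. The table's chromosome accessions are not those of GRCm38.p6, so positions are RefSeq's for that build, matched by gene ID for 18663 genes.

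edgeR 4.0.16 (R 4.3.3, limma 3.58.1) kept 14892 genes with filterByExpr, scaled them by TMM and fitted a robust quasi-likelihood model with 1 mean per group on all 11 libraries, because high-fat sham has 2. All p-values are two-sided and Benjamini-Hochberg adjusted over all tested genes at a threshold of 0.05. The SE was derived from the F statistic, as the size of the log2 fold change over the root of F. CPM use TMM-scaled totals, and log2 CPM a prior count of 2. Replicates differed by more than counting noise (18.4 to 266 for chi-square over its degrees of freedom), and precision is limited by the few libraries per group. The procedure was run on simulated data that held changes with the diet only and no library set apart like regular-diet CIA b. That run does not show how calls behave with such a library. Fitted fold changes of genes near 0 counts depend on edgeR's default prior count, which is separate from the 2 used for log2 CPM.

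The 10 genes, the gene lists and the markers were chosen with earlier results of these data known. Up to 4 genes of each pathway list are named, called ones first and then the most abundant. For Elovl6, Scd1 and each called member, the 2 nearest genes in pattern are named. Not every gene that qualifies is given with values. Alternatives were DESeq2 1.42.0, scaling by RLE or by the upper quartile, fitting without a filter on low counts, the replicate letter as a block and leaving out each library in turn.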

Additional observations from a re-analysis of the deposited data

How the results depend on the processing

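Under DESeq2, 1 of the 10 genes (Fads1) passed for CIA on the high-fat diet and 2 (Elovl6 and Scd1) for the diet in sham mice, where edgeR gave 0, and 3 in place of 2 passed for the diet averaged (Scd2 added). The counts over all genes in DESeq2 were 783 and 3254 for CIA on the regular and the high-fat diet, 114 and 2000 for the diet in sham and in CIA mice, 21 for the interaction and 2071 for the diet averaged, against 4, 1610, 0, 588, 0 and 871 in edgeR. With the replicate block, 0 of the 10 passed for the diet in CIA mice (0 of all genes) and 0 for the diet averaged (0 of all genes), and 776 of all genes passed for CIA on the high-fat diet. The labels do not say whether the letters pair the libraries. The correlation of deviations from the group means was -0.43 to 0.46 for the same letter (5 of 15 pairs over 0.1). For other letters it was -0.55 to 0.59 (11 of 30 pairs over 0.1). With 2 or 3 libraries per group, these values cannot decide whether a batch was shared by letter. RLE and upper-quartile scaling and no filter kept the number of the 10 genes called in all 7 comparisons. Leaving out each library gave 0 to 1 of the 10 for CIA on the high-fat diet and for the diet in sham mice, 0 to 3 for the diet in CIA mice, 0 to 2 for CIA averaged and 0 to 4 for the diet averaged, each highest without regular-diet CIA b. For the diet averaged these were Elovl5, Elovl6, Fads1 and Scd1.

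Log2 fold changes changed sign only where they were not called. With upper-quartile scaling Scd2 was at -0.017 for CIA on the high-fat diet. With the replicate block Scd1 was at -0.025 for CIA on the regular diet, Fads2 at -0.075 for the diet in sham mice, and Elovl3 at -0.92 for the diet in CIA mice and -0.047 for the interaction. Leaving out a library gave ranges across 0 for CIA on the regular diet (Elovl4 -0.14 to 1.02, Elovl5 -0.47 to 0.037, Scd1 -0.31 to 0.52, Scd2 -0.16 to 0.54, Fads2 -0.13 to 0.19) and on the high-fat diet (Elovl3 -0.71 to 2.36, Elovl6 -0.020 to 0.30, Scd2 -0.077 to 0.16). The same held for CIA averaged (Elovl1 -0.044 to 0.14, Elovl5 -0.17 to 0.088, Scd2 -0.062 to 0.29) and for the diet in sham mice (Fads2 -0.072 to 0.11). For the diet in CIA mice the ranges were -2.47 to 0.59 for Elovl3, -0.47 to 0.023 for Elovl5 and -0.23 to 0.89 for Elovl7, and for the interaction -1.67 to 1.397 for Elovl3, -0.25 to 1.25 for Elovl4, -0.85 to 0.27 for Elovl7 and -0.50 to 0.19 for Scd2. The causes were not tested. Without a high-fat sham library, the lone one left is assumed to vary like the other groups. Depth limits Elovl4, with 3 to 28 counts per library, and Elovl3, with 5 to 145.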
